A study of Mus musculus with 12 samples.

Results

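The effect of a catalase transgene in mice without diabetes was read from 6 of the 12 arrays of the series, the 3 labelled catalase-Tg and the 3 labelled wild type. The arrays were chosen by their titles alone. Each held RNA from kidney proximal tubules isolated by Percoll centrifugation from mice aged 20 weeks on a normal diet. The other 6 arrays, 3 of dB/dB mice, which lack a working leptin receptor, and 3 of dB/dB mice that also carried the transgene (dB/dB catalase-Tg), gave a second and separate pair for the same transgene. The labels give neither strain nor sex, and do not say that the samples came from separate animals. A p-value here sets a difference against the spread among samples within groups, which may include technical variation. Work on these mice, though no label, gives the transgene as rat catalase behind the promoter of Kap, the kidney androgen-regulated protein gene, which is active in proximal tubule cells.

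Catalase is the peroxisomal enzyme that turns hydrogen peroxide into water and oxygen. The proximal tubule takes back most filtered glucose, phosphate and amino acids, burns fatty acids in its mitochondria and peroxisomes, and holds more peroxisomes than most cells. Hydrogen peroxide forms there as a by-product of peroxisomal oxidases, of respiration and of NADPH oxidases, and is removed by catalase, glutathione peroxidases and peroxiredoxins.

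Expression is given as log2 values, which ran from a floor of 2.302 to 15.659. Probe sets above 4 on at least 3 of the 12 arrays, 18144 in all, were tested with limma, and a probe set was called at a Benjamini-Hochberg adjusted p under 0.05. A difference is always catalase-Tg minus wild type on the log2 scale with the standard error (SE) of the fit, unless the dB/dB pair is named. A gene was represented by its probe set of highest mean over the 12 arrays, which gave 9751 genes. The groups were counted as apart when all 3 arrays of one lay beyond all 3 of the other.

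The 3 wild-type arrays differed from each other more than the catalase-Tg arrays did. Correlations across all probe sets were 0.941 to 0.984 within wild type, 0.976 to 0.996 within catalase-Tg and 0.938 to 0.988 between them. Wild type 1 correlated better with the dB/dB arrays (mean r = 0.987) than with its own group (0.954). Xist, the RNA of the inactive X chromosome, had values of 2.32 for wild type 1, 11.91 for wild type 2, 6.72 for wild type 3 and 2.31 to 2.67 for catalase-Tg. The Y-linked Eif2s3y had values of 8.13, 2.30 and 7.89 for wild type and 8.06 to 8.63 for catalase-Tg. Wild type 2 thus carried Xist and no Eif2s3y signal, wild type 3 carried both, and the other 4 arrays carried Eif2s3y alone. The mean score of podocyte, endothelial and fibroblast markers, as the difference of each gene from its 12-array mean, was 1.85, -1.61 and 0.53 in the wild-type samples and -0.69, -1.65 and -1.71 in the catalase-Tg samples. Results are therefore given with and without these arrays where they rest on them. In RNA of a whole preparation, fewer cells of a type and less RNA per cell cannot be told apart.

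The signal of the mouse Cat probe sets was high on all 6 arrays. The brighter Cat probe set read 10.66, 12.68 and 12.43 in wild type and 11.98, 12.42 and 12.39 in catalase-Tg. Wild type 1 was the lowest and the groups overlapped, with a difference of 0.34 (SE 0.48, limma adjusted p = 0.843). The difference turned to -0.35 when the score of other-cell markers entered the fit as a covariate and to -0.15 without wild type 1 and catalase-Tg 1. Without wild type 2 and wild type 3, with wild type 1 as the lone control, it was 1.60 and passed (limma adjusted p = 0.0403), the 1 of 17 alternatives in which it did. Whether these probe sets also read the rat transcript was not tested, so they do not check the labels. Kap itself, an abundant proximal tubule transcript induced by androgen, read 8.63, 11.70 and 15.23 in wild type and 8.46, 15.26 and 15.22 in catalase-Tg. It was low on wild type 1 and catalase-Tg 1 alike and intermediate on wild type 2, so that the spread within either group (SD 3.30 and 3.91, n = 3) was larger than the difference of 1.13 (SE 1.90, limma adjusted p = 0.876). All 4 Lepr probe sets lay below the filter and say nothing of the leptin receptor here.

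The mouse Kap promoter is shown because the transgene is driven by it, by that account. The window holds the 250 bases before the RefSeq start, chr6:133853668-133853917 of GRCm38.p6 on the minus strand, with a TATAAA match at -31 from the start in capitals.
Kap: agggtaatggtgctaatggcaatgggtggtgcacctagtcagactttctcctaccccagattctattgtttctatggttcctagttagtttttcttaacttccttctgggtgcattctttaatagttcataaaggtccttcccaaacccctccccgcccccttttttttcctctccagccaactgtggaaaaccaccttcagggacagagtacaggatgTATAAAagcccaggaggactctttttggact
TATAAA was found on either strand in 12.4% of 32851 such RefSeq windows. The letters AGAACA, the hexamer repeated in the androgen receptor's binding element, were not in this window and were in 16.1% of all windows.

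4 of 18144 probe sets (0.022%) were called in catalase-Tg against wild type, 2 higher (0.011%) and 2 lower (0.011%). Those higher were Angptl7, which encodes a secreted angiopoietin-like glycoprotein of the extracellular matrix, and Fkbp1b, which encodes an immunophilin that binds ryanodine receptors and rapamycin. Those lower were Med1, which encodes the Mediator subunit that docks nuclear receptors, and a probe set without a gene symbol. At an unadjusted p under 0.05 there were 1660 probe sets (9.15%), 520 higher (2.87%) and 1140 lower (6.28%).

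Angptl7 was 2.49, 2.48 and 2.49 in wild type and 7.51, 7.96 and 9.47 in catalase-Tg. All 3 wild-type arrays lay near the floor and all 3 catalase-Tg arrays lay over 5 units above them. The difference was 5.83 (SE 0.39, limma adjusted p = 0.000451). Angptl7 passed the filter on low values only through the 3 catalase-Tg arrays, and the size of the difference depends on where the floor lies. In dB/dB mice Angptl7 read 2.36, 2.49 and 2.37 without the transgene and 2.60, 2.49 and 2.49 with it, so both groups lay near the floor. Angptl7 passed the test of the difference between the 2 transgene differences, at -5.71 (limma adjusted p = 0.0163), and no other probe set did (1 of 18144, 0.00551%). With the replicate number as a block that adjusted p was 0.0527, without wild type 1, wild type 2 or catalase-Tg 2 it was 0.0732, 0.0793 and 0.0557, and without both wild type 2 and wild type 3 it was 0.081. Over all alternatives it ran from 7.62e-05 to 0.081, while the difference in the wild-type pair stayed between 5.25 and 6.23. Of 4 angiopoietin and angiopoietin-like genes tested, Angptl7 alone was apart, and Angpt1, a ligand of the endothelial receptor Tie2, differed by 0.83 (SE 0.48).

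Fkbp1b read 2.66, 2.52 and 2.36 in wild type and 5.15, 4.59 and 5.21 in catalase-Tg. The groups lay apart by almost 2 units, and the difference was 2.47 (SE 0.22, limma adjusted p = 0.00317). As for Angptl7, the catalase-Tg arrays alone brought it past the filter, with the other 9 arrays at 3.07 or less. In the dB/dB pair it read 2.55, 2.54 and 2.55 without the transgene and 3.07, 2.52 and 2.52 with it. The difference between the 2 pairs did not pass for Fkbp1b (limma adjusted p = 0.15). Of 13 FKBP genes tested, Fkbp1b alone was called. Fkbpl (0.52, SE 0.18) and Fkbp15 (0.44, SE 0.23) also lay apart and higher, and the list median was 0.10. With Fkbp1b itself counted, 3 of the 13 were apart and higher (23.1%, against 5.87% of all genes). Of 8 genes of ryanodine receptors and other calcium stores, none was apart, and their median was -0.19.

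The called Med1 probe set read 8.02, 7.98 and 8.03 in wild type and 5.99, 6.12 and 6.32 in catalase-Tg. Both groups were tight and apart, and the difference was -1.87 (SE 0.21, limma adjusted p = 0.0146). It was also the only probe set called in the dB/dB pair (0.00551%), where it read 8.21, 8.23 and 8.39 without the transgene and 5.54, 6.17 and 6.32 with it, a difference of -2.27 (limma adjusted p = 0.00974). These 6 arrays share none with the wild-type pair. The other 3 Med1 probe sets tested gave -0.32 (SE 0.28), -0.23 (SE 0.39) and 0.06 (SE 0.15), with overlapping groups. In the dB/dB pair the same 3 gave -0.635 (SE 0.28), -0.23 (SE 0.39) and 0.07 (SE 0.15), also with overlap. A fall that set the groups apart was thus seen at 1 probe set of the gene. The call ended without wild type 3, catalase-Tg 1, catalase-Tg 2 or catalase-Tg 3 (limma adjusted p = 0.0757, 0.0563, 0.0883 and 0.0647). It also ended with the 6 arrays of the comparison alone and without both wild type 1 and catalase-Tg 1 (limma adjusted p = 0.184 and 0.102). Of 31 Mediator subunits tested, 4 were apart and lower (12.9%, against 8.74% of all genes). The others beside Med1 were Med30 (-0.62), Med23 (-0.32) and Med31 (-0.15), and the list median was -0.03, with its sign turned by centring each array.

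The called probe set without a symbol read 7.82, 8.29 and 6.83 in wild type and 4.02, 4.26 and 4.14 in catalase-Tg. The difference was -3.51 (SE 0.34, limma adjusted p = 0.00502). In dB/dB mice it read 6.66, 6.69 and 6.65 without the transgene and 6.46, 5.59 and 6.06 with it, apart in the same direction with a smaller difference of -0.63, and the difference between the pairs did not pass (limma adjusted p = 0.528).

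**Figure D1:**
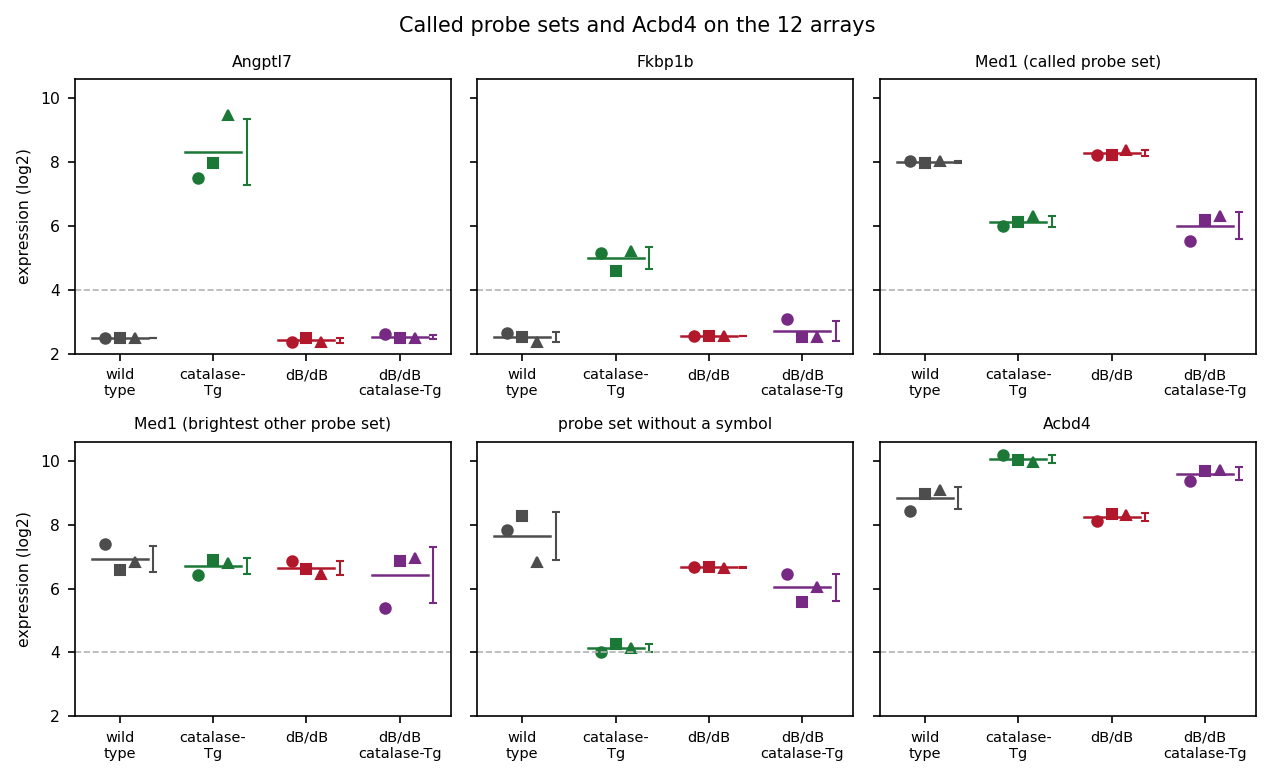
Expression (log2) of the called probe sets, the brightest other Med1 probe set and Acbd4 on the 12 arrays. Circles, squares and triangles are samples 1, 2 and 3 of a group, horizontal lines group means, bars beside them 1 SD, and the dashed line the filter at 4. Angptl7 is at 7.51 to 9.47 on the catalase-Tg arrays and near the floor on the other 9, while Med1 and Acbd4 differ in both pairs.

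The promoters of the called genes are shown because these genes differed with the transgene. Each is the 250 bases before the RefSeq start on GRCm38.p6, at chr4:148500463-148500712 for Angptl7, chr12:4841574-4841823 for Fkbp1b and chr11:98192907-98193156 for Med1, all on the minus strand. Capitals mark a match to TGACNNNGC, the core that NRF2 binds, read on the other strand.
Angptl7: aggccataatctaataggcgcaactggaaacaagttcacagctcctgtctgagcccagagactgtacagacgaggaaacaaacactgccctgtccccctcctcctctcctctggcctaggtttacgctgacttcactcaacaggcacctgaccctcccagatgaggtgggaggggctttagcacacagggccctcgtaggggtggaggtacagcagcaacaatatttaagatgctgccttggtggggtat
Fkbp1b: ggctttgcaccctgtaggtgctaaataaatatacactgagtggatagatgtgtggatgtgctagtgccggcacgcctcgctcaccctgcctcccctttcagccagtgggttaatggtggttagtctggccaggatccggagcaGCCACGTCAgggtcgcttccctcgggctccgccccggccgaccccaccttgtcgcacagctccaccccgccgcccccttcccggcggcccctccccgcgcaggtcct
Med1: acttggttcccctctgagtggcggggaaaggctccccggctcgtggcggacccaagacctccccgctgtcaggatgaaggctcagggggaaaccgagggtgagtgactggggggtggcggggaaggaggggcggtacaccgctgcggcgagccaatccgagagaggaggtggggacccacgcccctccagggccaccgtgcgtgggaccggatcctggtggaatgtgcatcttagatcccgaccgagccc
Only the Fkbp1b window held TGACNNNGC, at -107 from the start, against 10.2% of all windows on either strand. None of the 3 held TATAAA or AGAACA. These are matches of letters and say nothing of binding.

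Genes next to Angptl7 in the genome were examined in the same fit. Angptl7 lies within Mtor, the kinase gene, which read 7.84, 8.79 and 9.62 in wild type and 8.86, 9.77 and 9.38 in catalase-Tg, a difference of 0.59 (SE 0.42) with overlapping groups. Of the 10 nearest tested genes, 5 on each side, 3 had an unadjusted p under 0.05, and of 20 nearest 5 did, against 10.3% of all genes. None was called. Fbxo44, a ubiquitin ligase adaptor, read 6.63, 5.59 and 5.72 in wild type and 4.74, 4.76 and 4.30 in catalase-Tg (difference -1.38, SE 0.29, limma adjusted p = 0.309). Its paralog Fbxo6 differed by -0.70 (SE 0.20). Agtrap, which encodes a protein that draws the angiotensin II type 1 receptor into the cell, read 7.05, 7.44 and 7.24 in wild type and 8.47, 8.14 and 8.43 in catalase-Tg (difference 1.10, SE 0.27, limma adjusted p = 0.391). Clcn6, a chloride and proton exchanger of late endosomes that was picked out after its values were seen, differed by 1.62 (SE 0.37, limma adjusted p = 0.355). All 4 lay apart between the groups, lower for the F-box genes and higher for Agtrap and Clcn6. In the dB/dB pair the same genes differed by 0.05, -0.13, 0.25 and 0.21. Of the 20 genes around Fkbp1b, Med1 and Acbd4, 2, 1 and 4 had an unadjusted p under 0.05.

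**Figure D2:**
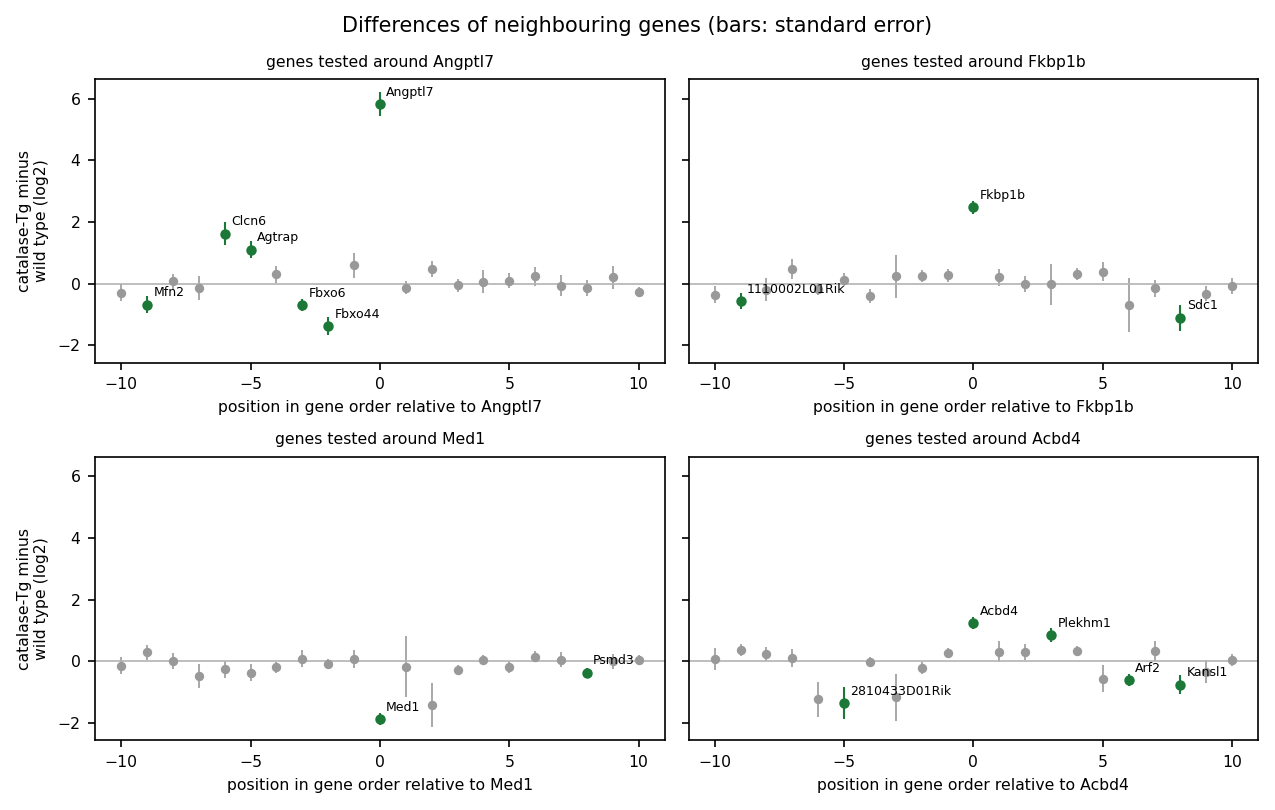
Differences (catalase-Tg minus wild type, log2) of the tested genes up to 10 places before or after Angptl7, Fkbp1b, Med1 and Acbd4 in the reference gene order. Bars are SE, and green named points have an unadjusted p under 0.05. Around Angptl7, Clcn6 and Agtrap lie above 0 and Fbxo44, Fbxo6 and Mfn2 below it.

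Beyond the called genes, 572 genes were apart and higher (5.87%) and 852 apart and lower (8.74%). Acbd4, which encodes an acyl-CoA binding protein that tethers peroxisomes to the endoplasmic reticulum, read 8.43, 8.97 and 9.09 in wild type and 10.19, 10.02 and 9.98 in catalase-Tg. Its groups were apart with a difference of 1.23 (SE 0.20), which did not pass (limma adjusted p = 0.213). Its second probe set gave 1.78 (SE 0.60). In the dB/dB pair, Acbd4 read 8.11, 8.32 and 8.31 without the transgene and 9.38, 9.70 and 9.73 with it, a difference of 1.36. Acbd4 passed without wild type 2 (limma adjusted p = 0.0397) and without both wild type 2 and wild type 3 (0.00609).

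The other genes of smallest p among those higher included genes of transport and signalling. Irs2, the insulin receptor substrate, differed by 0.87 (SE 0.17), Slc38a6, an amino acid transporter, by 1.06 (SE 0.21), and Slc25a48, a mitochondrial carrier, by 1.78 (SE 0.36). Ang, the ribonuclease angiogenin, read 3.35, 4.74 and 3.80 in wild type and 5.37, 5.54 and 6.30 in catalase-Tg, a difference of 1.77 (SE 0.37). The actin-binding protein gene Lmod1 gave 1.88 (SE 0.37), Spns3 1.31, Rtl8c 1.02, Gm11827 1.59 and 1700028P14Rik 1.76. None passed, with limma adjusted p of 0.151 for 1700028P14Rik and 0.309 for the others. As for Angptl7 and Fkbp1b, Irs2 and Lmod1 passed the filter on low values only through the catalase-Tg arrays, with all other arrays below 4. Ang was above 4 elsewhere only on wild type 2, at 4.74, so it too passed through the catalase-Tg arrays.

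The genes of smallest p among those lower were led, after Med1, by Vav3, a guanine nucleotide exchange factor, which read 7.03, 5.86 and 5.84 in wild type and 2.64, 3.75 and 3.86 in catalase-Tg (difference -2.83, SE 0.50). The aldo-keto reductase gene Akr1e1 had a wild-type mean of 8.53 ± 0.63 (SD, n = 3), lowest at 7.81 on wild type 1, against 6.23, 7.05 and 5.27 in catalase-Tg (difference -2.34, SE 0.43). The small GTPase gene Rab6b (-3.35, SE 0.68) and the kinase gene Stk26 (-3.36, SE 0.68) had wild-type values spread over more than 3 units, highest on wild type 1. Etnk1, ethanolamine kinase, differed by -1.60 (SE 0.33) and P3h2, a collagen prolyl hydroxylase, by -1.09 (SE 0.22). Cmtm7 (-2.65), Speg (-2.08), Zfp991 (-1.58) and Mettl23 (-1.07) lay lower too, as did the interferon-induced Ifit2 (-1.82). All had a limma adjusted p of 0.309.

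**Figure D3:**
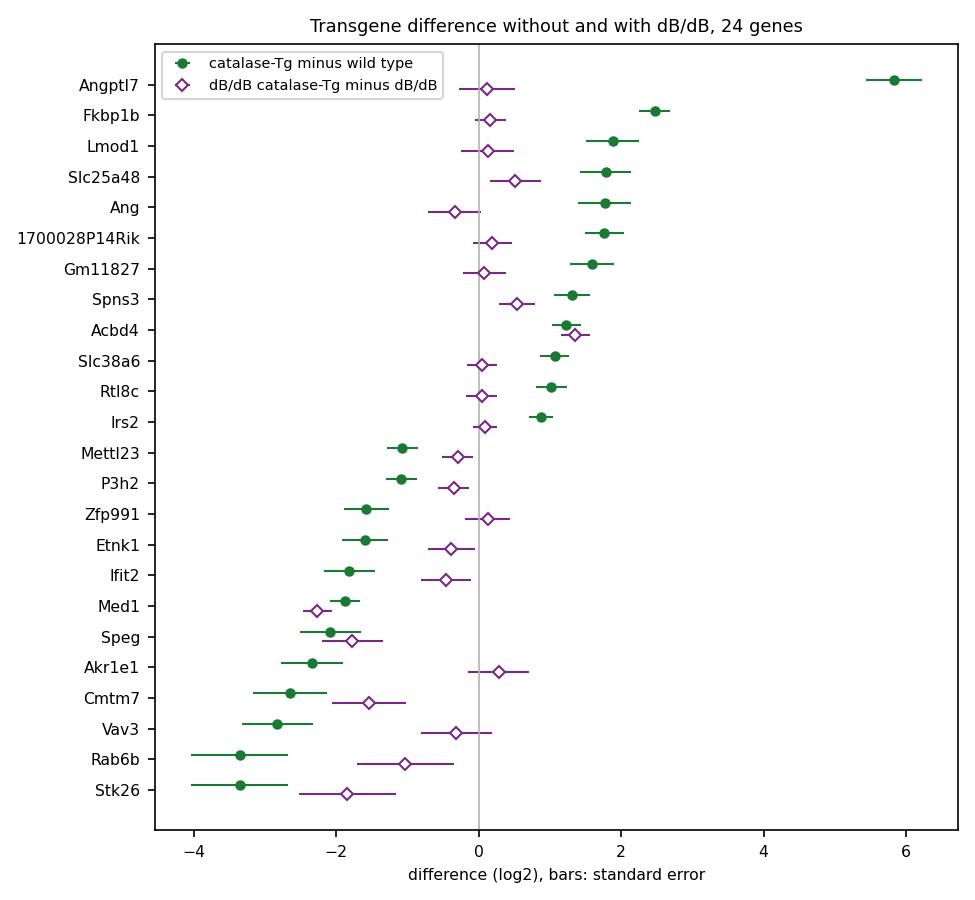
Transgene differences (log2) of the 24 genes of smallest p, 12 in each direction, in the wild-type pair (filled circles) and in the dB/dB pair (open diamonds). Bars are SE. The circles were chosen for their size. Acbd4, Med1, Speg, Cmtm7, Stk26 and Rab6b lie beyond 1 unit in the same direction in both pairs.

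The dB/dB pair shares no array with the wild-type pair and gave a second measure of these genes. Of the 12 genes of smallest p that were higher, 11 had the same sign in the dB/dB pair and 1, Acbd4, was apart there. Their median difference in the dB/dB pair was only 0.12. Angptl7 (0.12, SE 0.39), Fkbp1b (0.16, SE 0.22) and Irs2 (0.08, SE 0.17) were among those that differed there by less than their SE. Of the 12 that were lower, 10 had the same sign and 5 were apart there: Med1, Cmtm7, Stk26, Rab6b and Speg. The median of these 12 in the dB/dB pair was -0.42. Over all genes apart in one direction, 88 were higher in both pairs, which is 15.4% of the 572 in the wild-type pair and 18% of the 490 in the dB/dB pair, where 5.03% of all genes were higher. 276 were lower in both pairs, which is 32.4% of 852 and 23.9% of 1154, where 11.8% of all genes were lower. 5 and 1 genes went the opposite way. 74.7% of all 9751 genes had the same sign in both pairs. The other-cell score also ran lower with the transgene in the dB/dB pair, at 1.63, 0.69 and 2.05 without it and 1.34, -1.10 and -1.32 with it, and its part in this overlap was not tested.

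None of the genes tested that remove or make hydrogen peroxide passed in the fit of all 12 arrays. Beside catalase, 8 enzymes that remove peroxide were tested, 5 above 0 and 3 below, with none called, none apart and a median of 0.10, against -0.04 over all genes. That sign turned in 4 alternatives. Gpx1, the cytosolic glutathione peroxidase, read 13.24 on wild type 1 and 14.35 to 14.47 on the other 5 arrays. Gpx6 (-2.48, SE 0.71) and Gpx8 of the endoplasmic reticulum (-2.51, SE 0.89) had overlapping groups and their highest values on wild type 1. The 14 oxidases that make peroxide had a median of 0.44, which turned to -0.16 without wild type 1 and to -0.43 with the other-cell covariate. Among them Cyba, the p22phox subunit of NADPH oxidases, was apart and higher (0.92, SE 0.47), and Maob, monoamine oxidase B, apart and lower (-2.09, SE 0.66). Each was 7.1% of the list, against 5.87% of all genes apart and higher and 8.74% apart and lower. Maob read 7.82, 4.48 and 5.83 in wild type and 4.04, 3.73 and 4.07 in catalase-Tg.

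Of 19 superoxide dismutase and thioredoxin genes, 15 lay above 0 (median 0.19) and 3 were apart and higher, 15.8% against 5.87% of all genes. These were Sod3, the extracellular superoxide dismutase (1.39, SE 0.70), thioredoxin Txn1 (0.49, SE 0.29) and the mitochondrial glutaredoxin Glrx5 (0.42, SE 0.25). The list's median was 0.13 with 11 of 19 above 0 without wild type 1, 0.36 without wild type 2, 0.38 without wild type 3, and 0.01 with 10 above 0 with the other-cell covariate. Sod3 read 7.40, 10.45 and 9.62 in wild type against 10.47, 10.63 and 10.54, so that wild type 1 made most of its difference. In the NRF2 pathway, the response to oxidants, 25 genes had a median of 0.14 with 16 above 0. The median turned to -0.11 without wild type 1 and with the other-cell covariate to -0.20, each with 8 above 0. The factor itself, Nfe2l2, read 9.78, 8.93 and 8.70 in wild type and 8.51, 8.23 and 8.39 in catalase-Tg (-0.76, SE 0.26). Gsta4, which conjugates lipid peroxidation products, read 10.44, 9.77 and 8.72 in wild type, above a catalase-Tg mean of 8.02 ± 0.03 (SD, n = 3; difference -1.62, SE 0.49), and in the dB/dB pair differed by -1.42. Gstp1 ran the other way (0.55, SE 0.19). Hmox1, heme oxygenase, read 3.71, 4.37 and 5.16 in wild type and 5.15, 5.79 and 5.71 in catalase-Tg, a difference of 1.14 (SE 0.48) where wild type 3 lay level with catalase-Tg 1. None of these genes passed.

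Genes of the list for peroxisome biogenesis and metabolism lay mostly above 0. Of 44 tested, 33 were above 0, the median was 0.34 and 5 were apart and higher (11.4%, against 5.87% of all genes). They were Agxt2, an aminotransferase (1.02, SE 0.54), the thioesterase Acot8 (0.47), the import factors Pex7 (0.24) and Pex10 (0.37), and Mpv17 (0.36). Agxt2 and Mpv17 encode mitochondrial proteins, so the 11.4% is not a share of peroxisomal genes alone. Without wild type 1 the count above 0 was 23 and the median 0.03, and with the other-cell covariate the count was 14 and the median -0.14. Mitochondrial fatty acid oxidation genes (29, median 0.09) held 1 gene apart, which was lower (3.4%, against 8.74% of all genes). It was Hadha, the trifunctional protein's alpha subunit (-0.63, SE 0.28). The list median turned to -0.10 without wild type 1, -0.09 without catalase-Tg 2, -0.10 without catalase-Tg 3 and -0.24 with the other-cell covariate. Respiratory chain subunits differed little in size. 62 of 70 lay below 0 with a median of -0.15, and differences ran from -0.40 for Atp5k to 0.32 for Sdhc. Sdhc alone was apart and higher (1.4%, against 5.87% of all genes). 6 of the 70 were apart and lower (8.6%, near the 8.74% of all genes), among them Ndufb11, Uqcrc2 and Atp5a1. Without wild type 1, 43 of 70 lay below 0.

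Proximal tubule transporters and enzymes lay above 0 in 57 of 64 cases, with a median of 0.76 and 6 apart and higher (9.4%, against 5.87% of all genes). Slc34a1, the main phosphate transporter, read 12.84, 13.62 and 13.55 in wild type and 14.07, 13.79 and 13.74 in catalase-Tg (0.53, SE 0.21). The lactate transporter Slc5a12 differed by 1.40 (SE 0.54), the neutral amino acid transporter Slc6a19 by 1.29 (SE 0.63) and the fructose transporter Slc2a5 by 2.27 (SE 1.16). Slc2a5 read 4.98, 9.23 and 8.31 in wild type against 9.31, 9.98 and 10.04, with wild type 1 far below. Without wild type 1 the count was 35 of 64 and the median 0.07, and with the other-cell covariate 33 and 0.02. The endocytic receptor Lrp2 read 10.39, 13.36 and 12.62 against 12.56, 13.08 and 13.26 on its brightest probe set, with overlap. Slc5a1, the glucose transporter of the later proximal tubule, was apart and lower, at 9.30, 8.58 and 8.21 against 3.66, 8.19 and 7.90, where catalase-Tg 1 alone lay far from the rest. It was the only one of the 64 apart and lower (1.6%, against 8.74% of all genes).

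Genes enriched in males or induced by androgen lay above 0 in 16 of 16 cases, with a median of 1.44 and none apart. Their score was -2.81, -0.76 and 1.68 in the wild-type samples and -0.64, 2.19 and 2.21 in the catalase-Tg samples. Cyp4a12a, an arachidonic acid hydroxylase of male kidney, was 2.43 for wild type 1 and 7.85 for wild type 2 (mean of the group 7.10 ± 4.33 SD, n = 3) and 9.98, 12.54 and 12.21 in catalase-Tg (4.48, SE 1.83). Wild type 3 lay between catalase-Tg 1 and the other catalase-Tg arrays, so the groups overlapped. Without wild type 1, 11 of 16 lay above 0 with a median of 0.66. The part of the split of Xist and Eif2s3y among the wild-type samples in this list was not tested.

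Genes induced by interferon and the MHC class I machinery lay below 0 in 27 of 27 cases. The median was -0.60, and 9 were apart and lower, 33.3% against 8.74% of all genes, but none passed. Ifit2, which binds viral RNA, read 5.75, 5.77 and 4.98 in wild type and 4.05, 3.36 and 3.65 in catalase-Tg (-1.82, SE 0.36, limma adjusted p = 0.309). Iigp1, an immunity-related GTPase, read 7.16, 8.49 and 7.04 against 4.95, 5.36 and 5.46 (-2.30, SE 1.58). Gbp2 (-1.74), Igtp (-1.08), the immunoproteasome subunit Psmb9 (-1.13), the peptide transporter subunit Tap2 (-0.74), Tapbp (-0.60) and the class I heavy chain H2-K1 (-0.51, SE 0.71) were apart as well. The ninth was Tap1. Leaving out single arrays of the 6 left 23 to 27 below 0, with medians from -0.90 to -0.55, and the other-cell covariate left 18 with a median of -0.27. The interferon score was 0.31, 0.35 and -0.20 on wild type 1, 2 and 3 and ran from -0.92 to -0.29 on the catalase-Tg arrays. The part of other-cell content in this difference was not tested. In the dB/dB pair the median was -0.20 with none apart and lower.

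The MHC class II genes ran the same way within the leukocyte list, where 15 of 15 lay below 0 (median -0.59). Of these, 4 were apart and lower (26.7%, against 8.74% of all genes). H2-Aa, a class II alpha chain, read 7.69, 7.02 and 7.45 in wild type and 6.83, 5.57 and 5.23 in catalase-Tg. Its chaperone Cd74 read 6.91, 6.88 and 6.88 against 6.40, 5.29 and 5.06. H2-Eb1 differed by -1.72 (SE 0.93) and H2-Ab1 by -1.24 (SE 1.31), and in the dB/dB pair all 4 differences were above 0, at 1.11 for H2-Eb1, 1.53 for H2-Aa, 1.68 for Cd74 and 1.87 for H2-Ab1. None passed the test of the difference between the pairs. Ptprc, the common leukocyte antigen, read 5.31, 3.04 and 4.55 in wild type and 5.35, 3.14 and 4.05 in catalase-Tg, with no separation of the groups. With the other-cell covariate the leukocyte median turned to 0.38. It was -0.15 with 8 of 15 below 0 without wild type 1, -0.05 with 8 without catalase-Tg 3, -0.32 with 10 without catalase-Tg 2, -1.14 without wild type 2 and -1.36 without catalase-Tg 1.

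**Figure D4:**
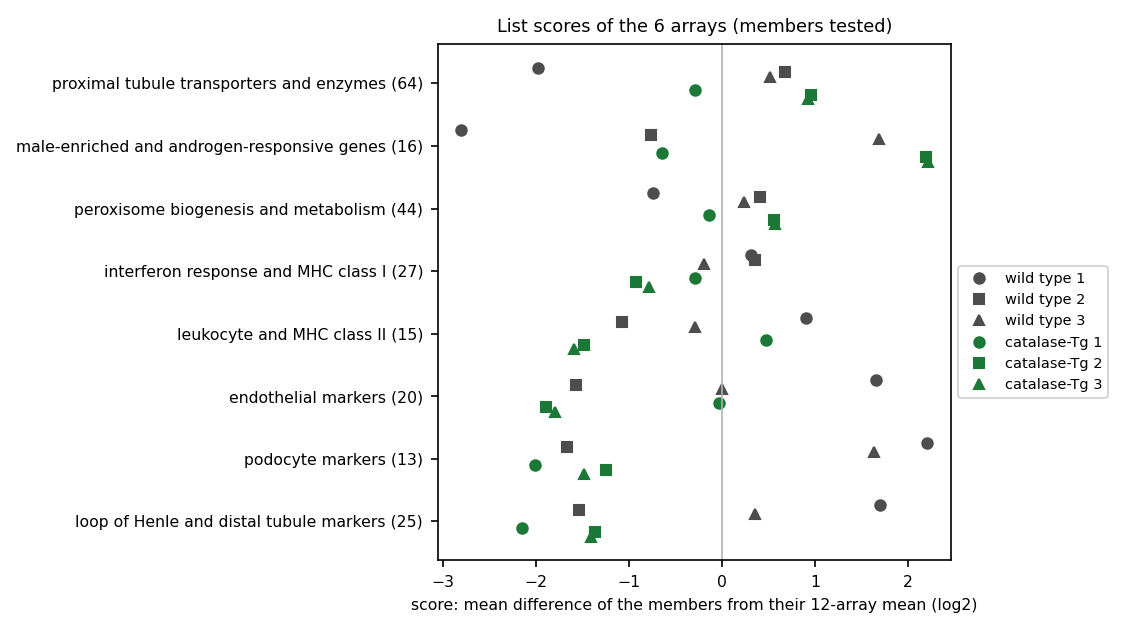
Scores of 8 gene lists on the 6 arrays, each the mean log2 difference of the tested members (number in brackets) from their mean over the 12 arrays. Wild type 1 has the lowest proximal tubule score and the highest endothelial score, and all 3 catalase-Tg arrays lie below all 3 wild-type arrays on the interferon list.

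Genes of the renin-angiotensin system, of cell death and of stress, on which work with these mice has centred, were not called. Agt, angiotensinogen, read 3.68, 7.53 and 7.05 in wild type and 3.95, 4.84 and 4.83 in catalase-Tg (-1.55, SE 0.93), and without wild type 2 and wild type 3 the difference was 0.86. Of 12 genes of the system, neprilysin Mme was apart and lower, at 9.47, 9.01 and 8.53 against 5.18, 7.52 and 7.49 (-2.28, SE 0.60), as was Enpep, aminopeptidase A (-0.79, SE 0.33). Ctsa, a lysosomal protease, was apart and higher (0.68, SE 0.25), and Ace differed by 1.19 (SE 0.44) with overlap. The 2 lower were 16.7% of the 12, against 8.74% of all genes, and the 1 higher was 8.3%, against 5.87%. Bmf, a BH3-only protein that promotes apoptosis, read 4.96, 3.77 and 4.35 against 4.36, 4.27 and 4.29, a difference of -0.05 (SE 0.31) whose sign turned when arrays were centred or quantile normalized. Casp12 and Tgfb1 lay below the filter. Among 14 caspases and regulators (median -0.28, turned to 0.07 with the other-cell covariate), 3 were apart and lower (21.4%, against 8.74% of all genes) and 2 apart and higher (14.3%, against 5.87%), with none passing. Casp6 (-0.68), Birc2 (-0.45) and the apoptosome scaffold Apaf1 (-0.80) were apart and lower, and Fadd (0.35) and Casp8 (0.23) apart and higher. The 13 Bcl-2 family genes had a median of 0.02, and the 30 genes of endoplasmic reticulum stress -0.02, where centring turned the sign. Of the latter only the sensor Atf6 was apart (-0.80, SE 0.34), with its lowest value on catalase-Tg 1. That was 3.3% of the 30, against 8.74% of all genes apart and lower.

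Proximal tubule transcription factors (16, median 0.11) held 1 gene apart and higher, the bile acid receptor Nr1h4 (1.19, SE 0.62), and 1 apart and lower, the nuclear receptor Esrrg (-0.94, SE 0.36). Each was 6.25% of the list, against 5.87% of all genes apart and higher and 8.74% apart and lower. Of 15 genes of gluconeogenesis, which the proximal tubule performs, Fbp1, fructose bisphosphatase, was apart and higher (0.71, SE 0.37). That was 6.7% of the list, near the 5.87% of all genes. The 18 PPAR-alpha targets had none apart, and their median of 0.11 turned to -0.28 without wild type 1 and to -0.58 with the other-cell covariate.

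Of 12 glycolytic genes, the phosphofructokinases Pfkm (-0.78, SE 0.22) and Pfkl (-0.47, SE 0.22) were apart and lower (2 of 12, 16.7%, against 8.74% of all genes), and neither passed. Pfkm read 8.48, 7.75 and 7.68 in wild type and 7.17, 7.25 and 7.17 in catalase-Tg. In sterol synthesis, squalene synthase Fdft1 read 8.92, 8.23 and 8.41 against 7.81, 7.48 and 7.56 (-0.91, SE 0.23), Msmo1 differed by -0.88 (SE 0.27) and Sqle by -0.49, while Sc5d lay higher (0.88, SE 0.37). These 4 were the genes apart among 37 of lipid synthesis. The 3 lower were 8.1% of the list, near the 8.74% of all genes, and the 1 higher was 2.7%, against 5.87%. The list median of -0.02 turned sign with centring and with quantile normalization.

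Markers of other nephron segments and cell types lay below 0 in most cases. Of 25 loop of Henle and distal tubule markers 23 were below 0, with a median of -1.97 and 7 apart and lower (28.0%, against 8.74% of all genes). Slc12a1, which moves salt in the thick ascending limb, read 13.85, 11.09 and 12.78 in wild type and 8.70, 10.64 and 10.77 in catalase-Tg (-2.54, SE 0.69), and uromodulin, Umod, 14.40, 12.29 and 13.58 against 11.29, 11.98 and 12.11 on the probe set with the larger difference (-1.63, SE 0.44). Wild type 2 lay close to the catalase-Tg arrays in both. All 13 podocyte markers (median -2.61, scores from -1.67 to 2.20 in wild type and from -2.02 to -1.25 in catalase-Tg) and all 20 endothelial markers (median -1.22, scores from -1.57 to 1.65 and from -1.90 to -0.03) were below 0, and none was apart, as wild type 2 lay among the catalase-Tg arrays. Without wild type 2, when 270 of 18144 probe sets were called, 6 podocyte and 18 loop and distal markers passed. None passed without wild type 1, and the medians were -1.87 for podocyte, -1.04 for loop and distal and -0.45 for endothelial markers, the last with 16 of 20 below 0. With the other-cell covariate, which is built from podocyte, endothelial and fibroblast markers, they were -0.94, -0.88 and 0.33. Fibroblast and mural markers (11, median -1.16) and collecting duct markers (16, median -0.42) each held 1 gene apart, Gata3 in both (-1.59, SE 0.62). That was 9.1% and 6.25% of these lists, near the 8.74% of all genes apart and lower. The fibroblast median was -0.26 without wild type 1, and it turned to 0.45 with the covariate. Aqp2, the collecting duct water channel, stayed at the floor on all 6 arrays.

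Matrix and injury genes also lay mostly below 0. Of 24 tubular injury genes 20 lay below 0 (median -1.10), with S100a10 (-1.01, SE 0.23) and Sox4 (-1.92, SE 0.73) apart (8.3%, near the 8.74% of all genes). The median was -0.58 without wild type 1 and -0.19 with the other-cell covariate, which left 15 below 0. S100a10, a partner of annexin A2, read 10.71, 10.67 and 10.27 in wild type and 9.62, 9.63 and 9.39 in catalase-Tg, tight in both groups, and differed by 0.04 in the dB/dB pair. Of 26 fibrosis genes 22 lay below 0 (median -0.55, -0.16 without wild type 1 and 0.11 with the other-cell covariate). Col5a2, a fibrillar collagen chain, read 10.53, 6.97 and 7.69 in wild type and 4.73, 2.55 and 2.51 in catalase-Tg, a difference of -5.14 (SE 1.12). It did not pass (limma adjusted p = 0.321), and passed with the replicate number as a block (0.025), with array weights (0.0383), without wild type 2 (0.0485) and without wild type 2 and wild type 3 (0.0142), out of 18 alternatives with limma adjusted p from 0.0142 to 0.755. Immediate early and heat shock genes, which respond to handling of tissue, lay below 0 in 23 of 30 cases (median -0.40), and that median was 0.01 without wild type 1 and 0.36 with the other-cell covariate.

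**Figure D5:**
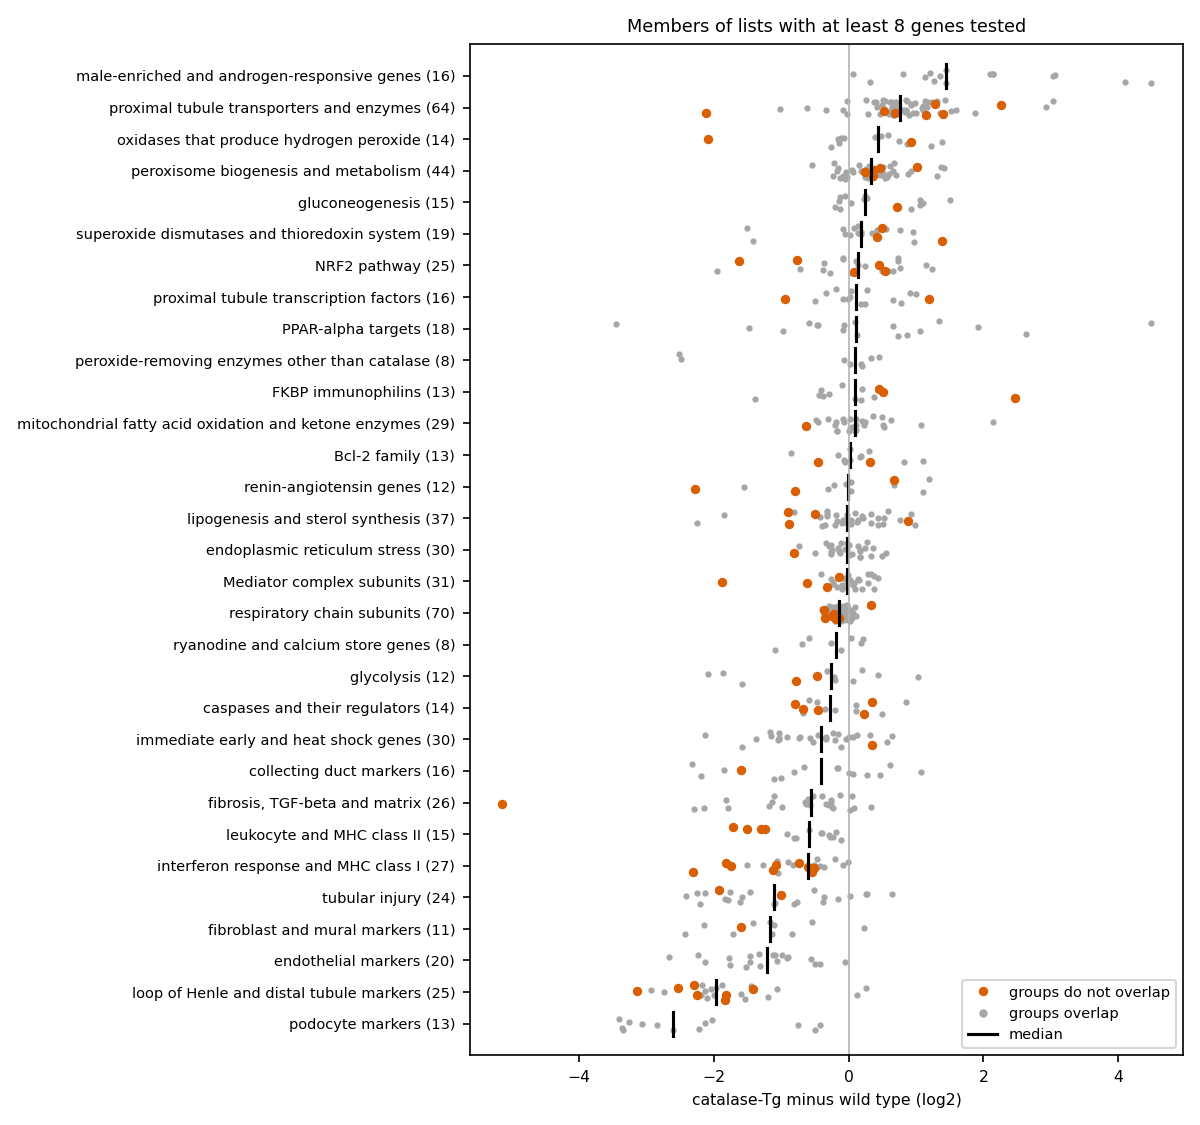
Differences (catalase-Tg minus wild type, log2) of the members of every list with at least 8 genes tested. Each point is a gene, orange where the groups do not overlap, and black bars are medians, from -2.61 for podocyte markers to 1.44 for male-enriched genes. The medians of the lipid synthesis, renin-angiotensin, endoplasmic reticulum stress and Mediator lists are near 0 and turn sign when arrays are centred.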

How the data were processed

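Expression in 12 samples was deposited as log2 values per probe set of an Affymetrix mouse array. The authors made them with GCRMA and also used limma, per the submitters' processing notes, with versions not given in the sources used here. Of 45101 probe sets 64 controls were left out. Of the other 45037, 34945 had 1 gene symbol in GEO's annotation, 932 several and 9160 none, and symbols were checked against the RefSeq gene table of GRCm38.p6. No further normalization was applied. limma 3.58.1 in R 4.3.3 was fitted to all 12 arrays with 1 mean per group and tested on simulated data. The number of arrays limits the precision.

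The 35 gene lists held 977 entries, of which 890 were named on the array and 727 tested. The genes named are the targets of earlier work, the called probe sets with their neighbours, the 12 of smallest p in each direction among genes apart, up to 3 leading members of each list and cell markers. Groups of genes beyond these were named because they were apart. The comparison, lists and rule were chosen with earlier results of these data known. Lists were given no test.

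Samples of a group carry numbers 1 to 3 in the labels. Deviations from the group means of same-numbered wild-type and catalase-Tg arrays correlated at 0.396, 0.200 and 0.308. Crossed pairs reached similar values, at 0.357 for wild type 3 with catalase-Tg 2 and 0.241 for wild type 2 with catalase-Tg 3. The labels do not say that the numbers pair samples. The main fit therefore had no block, and the replicate block was an alternative. Alternatives were the filter, arrays in the fit, array weights, spread estimate, normalization, 1 probe set per gene, the replicate block, an other-cell covariate and leaving out arrays.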

Additional observations from a re-analysis of the deposited data

Results flagged for a closer look

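Angptl7 stood out because its transgene difference was not the same in the dB/dB pair as in the wild-type pair, by a test of that difference. The dB/dB pair's difference minus that of the wild-type pair was -5.71 (limma adjusted p = 0.0163, and 0.0527 with the replicate number as a block). Without wild type 1, wild type 2 or catalase-Tg 2 the limma adjusted p was 0.0732, 0.0793 and 0.0557. Angptl7 passed the filter on low values only through the catalase-Tg arrays. All other arrays lay near the floor, so the size of the difference depends on where the floor lies. The 3 catalase-Tg arrays read 7.51, 7.96 and 9.47, and the dB/dB catalase-Tg arrays 2.60, 2.49 and 2.49.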

How the results depend on the processing

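The 4 calls were 14 without the filter (6 higher, 8 lower), 3 with a stricter filter (1 higher), 0 with the 6 arrays alone (limma; 944 at an unadjusted p under 0.05), 4 lower with array weights and 1 lower with 1 probe set per gene. Leaving out 1 array gave 3 to 270 calls (2 to 19 higher, 1 to 251 lower), 270 of them without wild type 2, 7 without wild type 1 and 3 without catalase-Tg 2 or catalase-Tg 3. Without wild type 2 and wild type 3 there were 2180 (892 higher, 1288 lower), with wild type 1 as the lone control, assumed to vary like the other groups. Without wild type 1 and catalase-Tg 1 there were 4, of which 2 were among the main calls. Probe sets whose transgene differences differed between the pairs numbered 6 without the filter, 0 to 2 with 1 array left out and 0 with the replicate block, which ended the Angptl7 call there, added the Col5a2 call and changed no other call.

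The difference of Cat turned to -0.35 with the other-cell covariate and -0.15 without wild type 1 and catalase-Tg 1, and ran from -0.29 to 1.60 with 1 array or wild type 2 and wild type 3 left out. Kap turned to -0.32 with the covariate and ran from -0.48 to 4.35. Bmf turned to 0.083 with array weights, 0.016 centred, 0.042 quantile normalized, 0.45 with the covariate and 0.22 without wild type 1 and catalase-Tg 1, and ran from -0.65 to 0.25. Agt was -2.97 with the covariate and, with arrays left out, ran from -2.75 without wild type 1 to 0.86 without wild type 2 and wild type 3. The cause was not tested. Of 498 values for 30 named genes, 446 kept their direction and side of the threshold. Medians of 21 of 35 lists turned sign in at least 1 alternative and 14 kept it. Values near the floor limit folds.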

Other observations

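A red cell transcript, Alas2, was high on 1 array. Alas2, the first enzyme of heme synthesis in red cell precursors, read 10.52 on catalase-Tg 1 and 4.30 to 6.32 on the other 5 arrays. Slc4a1, also on the red cell list, did not share this rise, at 4.46 on catalase-Tg 1 and 3.71 to 4.38 on the other 5 arrays. Cyp4a14, a female-enriched hydroxylase, read 11.74 on wild type 2, 5.96 on wild type 3 and 2.48 to 3.52 on the other 4 arrays.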
